A study of Mus musculus with 6 samples.

Results

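The oxidative phosphorylation subunits are the proteins that make up the 5 enzyme complexes of the mitochondrial inner membrane. They were chosen by name from the gene table: the 13 mitochondrial mRNAs, and nuclear genes whose symbols start with Ndufa, Ndufb, Ndufc, Ndufs, Ndufv, Uqcr, Cox4 to Cox8 or Atp5, with Sdha to Sdhd and Cyc1. Of 22964 genes in the table, 97 were members, 13 of them mitochondrial and 84 nuclear. The nuclear members belong by symbol to complex I (38), complex II (4), complex III (9), complex IV (16) and complex V (17). Assembly factors (8 Ndufaf genes) and 13 pseudogenes or noncoding loci were left out, and 3 protein-coding loci that the rule would take (Cox6a2, Cox8c and a second locus named Atp5o) were not analysed here. Ndufa4 is counted with complex I by its symbol, although its protein is now placed in complex IV. A filter on low counts kept 93 members for testing, the 13 mitochondrial mRNAs and 80 nuclear genes.

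Complex I takes electrons from NADH and complex II from succinate, complex III passes them to cytochrome c, and complex IV passes them to oxygen. Complexes I, III and IV pump protons, and complex V, the ATP synthase, makes ATP as protons flow back. Mitochondrial DNA encodes from 1 to 7 subunits of each complex except complex II, and nuclear genes encode the rest. Each complex other than complex II is thus built from both genomes. Endothelial cells are known for making much of their ATP by glycolysis, and lymphatic endothelial cells for using fatty acid oxidation as well.

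RNA was sequenced from lymphatic endothelial cells, which line lymphatic vessels, taken from the meninges that wrap the brain. The old group was 3 samples from wild-type male C57BL/6J mice of 20 to 24 months, and the young group was 3 samples from wild-type males of the same strain aged 2 to 3 months. No mouse was treated, and the cells were sorted as negative for CD45 and positive for CD31 and podoplanin. Animals were bought from a breeder or supplied by the National Institute on Aging, and the labels do not tie a source to a sample. Nothing states whether a sample was 1 mouse or a pool, so the p-values speak for the scatter of these 6 samples alone, part of which may be technical.

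Depth was 14803269, 14285794 and 20886836 estimated counts in the old samples, against 15733100, 18673806 and 21043945 in the young samples. Genes with a count numbered 17074, 17995 and 17472 in the old samples, against 18086, 18811 and 18949 in the young samples. Every old sample thus had fewer such genes than every young one. Nuclear members with no count numbered 3, 4 and 4 in the old samples, against 1, 2 and 0 in the young samples. All 8 lymphatic endothelial markers checked were detected, with summed levels of 15816 to 19169 CPM in old samples and 10051 to 12538 CPM in young samples. Of the marker sums for other cells, those of fibroblasts and blood endothelium did not overlap between the ages, and the rest overlapped. The 6 fibroblast markers summed to 1970 to 2125 CPM in old samples and 3986 to 5964 CPM in young samples, and the 5 blood endothelial markers to 365 to 672 CPM in old samples and 123 to 229 CPM in young samples. The 10 pericyte and smooth muscle markers with a row summed to 992 to 2017 CPM in old samples, highest in old sample 1, and to 691 to 1038 CPM in young samples. Log2 fold changes of those 10 markers, old over young, ran from −2.09 to 3.24. The 7 macrophage markers summed to 769 to 1281 CPM in old samples and 539 to 2573 CPM in young samples. The 3 erythroid markers summed to 2.46 to 460 CPM in old samples and 57.0 to 287 CPM in young samples, and the 3 neuronal markers to 0.223 to 49.7 CPM in old samples and 10.4 to 39.8 CPM in young samples. In a principal component analysis, old sample 1 stood apart on component 1 (29.3% of variance) and old sample 3 on component 2 (23.8%). What part these cell mixtures or libraries have in the values below was not tested, and in such bulk samples fewer cells of a type and less RNA per cell cannot be told apart.

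Mitochondrial genes lie so close together that some share bases, and reads from the shared bases fit both genes. The shared stretches are shown because the members' counts depend on how such reads were divided. They were read from the GENCODE M21 transcripts of GRCm38, on the plus strand, with the start codon of the second gene in capitals. The end of mt-Atp8 and the start of mt-Atp6 share 43 bases at chrM:7927-7969, and the end of mt-Nd4l and the start of mt-Nd4 share 7 bases at chrM:10167-10173.
mt-Atp8 and mt-Atp6: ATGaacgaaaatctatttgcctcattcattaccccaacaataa
mt-Nd4l and mt-Nd4: ATGctaa
The genes mt-Nd5 and mt-Nd6 overlap by 14 bases on opposite strands. The labels do not state whether the libraries kept strand.

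Nuclear subunit genes are known targets of the transcription factors NRF1, GABPA (of the ETS family) and YY1. RefSeq promoter windows of 300 bases on GRCm38.p6, with 250 bases before the gene start and 50 after it, were found for 69 of 84 nuclear members (74 windows). Printed below are the window of Cox6a1, the nuclear member highest per kb of its annotated exons, and that of Cox7a1, a muscle isoform of complex IV with no count in the old samples. Ndufa9 and Ndufb3 are shown because they are the members with the smallest p in each direction of the age comparison. Capitals mark the NRF1 motif CGCATGCG, the ETS motif CCGGAAG and the YY1 motif AAGATGGCG on either strand, and each window is written on the strand of its gene.
Cox6a1, chr5:115348909-115349208, minus strand: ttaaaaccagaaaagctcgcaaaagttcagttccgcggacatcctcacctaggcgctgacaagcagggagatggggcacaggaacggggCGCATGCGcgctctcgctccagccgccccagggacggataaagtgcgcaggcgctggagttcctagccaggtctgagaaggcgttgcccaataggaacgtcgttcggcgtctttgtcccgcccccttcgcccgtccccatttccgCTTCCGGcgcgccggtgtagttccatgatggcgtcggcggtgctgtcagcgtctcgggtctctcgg
Cox7a1, chr7:30183921-30184220, plus strand: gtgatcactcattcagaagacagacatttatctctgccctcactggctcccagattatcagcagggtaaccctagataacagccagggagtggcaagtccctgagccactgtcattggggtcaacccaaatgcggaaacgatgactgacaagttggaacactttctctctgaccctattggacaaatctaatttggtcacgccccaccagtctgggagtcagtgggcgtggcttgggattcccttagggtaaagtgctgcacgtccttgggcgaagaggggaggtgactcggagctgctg
Ndufa9, chr6:126849095-126849394, minus strand: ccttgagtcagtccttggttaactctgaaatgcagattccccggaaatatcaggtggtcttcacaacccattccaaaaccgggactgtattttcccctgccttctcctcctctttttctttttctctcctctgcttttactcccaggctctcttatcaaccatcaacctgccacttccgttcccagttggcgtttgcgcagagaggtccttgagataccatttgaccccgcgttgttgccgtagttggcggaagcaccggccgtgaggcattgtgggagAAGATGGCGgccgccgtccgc
Ndufb3, chr1:58586147-58586446, plus strand: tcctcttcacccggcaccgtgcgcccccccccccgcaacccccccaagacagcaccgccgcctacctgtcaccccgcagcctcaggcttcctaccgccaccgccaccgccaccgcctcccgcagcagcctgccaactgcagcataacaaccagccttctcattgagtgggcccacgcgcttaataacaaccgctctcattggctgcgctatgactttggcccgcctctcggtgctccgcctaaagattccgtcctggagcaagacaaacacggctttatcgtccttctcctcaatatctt
The Cox6a1 window holds an NRF1 match and an ETS match, the Ndufa9 window holds a YY1 match, and these letters are not in the Cox7a1 and Ndufb3 windows. Over the 74 member windows, 12.2% held the NRF1 motif, 21.6% the ETS motif and 9.46% the YY1 motif. Over all 32851 windows of this length the shares were 1.87%, 8.86% and 1.40%. The TATAAA motif was in 10.8% of member windows and 13.6% of all windows. A match is a description of the letters and not a measured binding site.

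The 13 mitochondrial mRNAs carried 1.74%, 2.15% and 1.70% of all counts in old samples 1, 2 and 3, against 1.75%, 1.86% and 1.92% in young samples 1, 2 and 3. The 84 nuclear members together carried 0.327%, 0.281% and 0.316% in the old samples and 0.294%, 0.304% and 0.308% in the young samples. The mitochondrial mRNAs therefore had 5.31, 7.66 and 5.38 times the counts of the nuclear members in the old samples, and 5.95, 6.13 and 6.23 times in the young samples. Old sample 2 had the highest such ratio of the 6 samples and old sample 1 the lowest, so the ages overlapped.

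Among the mitochondrial mRNAs, mt-Co1, the catalytic subunit of complex IV, stood highest per length in every sample. It averaged 6250 ± 701 CPM per kb in old samples and 5575 ± 132 CPM per kb in young samples (SD, n = 3 each), and took 48.6% to 50.1% of mitochondrial mRNA counts in old samples and 46.3% to 50.7% in young samples. The next were mt-Cytb, the cytochrome b of complex III, with a mean over the 6 samples of 1601 CPM per kb, and mt-Nd4, a proton-pumping subunit of complex I, with 1434 CPM per kb. Those 2 changed places in old sample 1 and do not differ beyond their spread.

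A middle group followed, in which neighbours did not keep their order across samples. It held the complex I subunit mt-Nd1 at 1099 CPM per kb, the copper-binding complex IV subunit mt-Co2 at 1088, the complex I subunit mt-Nd5 at 1013, the ATP synthase subunit mt-Atp6 at 909 and the complex IV subunit mt-Co3 at 790 CPM per kb. Lower stood mt-Nd4l at 572, mt-Nd6 at 444, mt-Nd2 at 242 and mt-Atp8 at 216 CPM per kb. The complex I subunit mt-Nd3 was lowest in every sample with a mean of 119 CPM per kb, so that mt-Co1 had 49.6 times its level per length. Counts were divided by the full gene length, and mt-Atp8, mt-Nd4l and mt-Nd3 are the shortest genes, with 204, 297 and 348 bases. The values of mt-Atp8 and mt-Nd4l also depend on how reads shared with mt-Atp6 and mt-Nd4 were divided. The order is thus one of counts per gene length, and for these overlapping pairs it does not give levels of separate mRNAs. What part length or shared reads have in this order was not tested. mt-Nd6, the only protein-coding gene on the other strand, averaged 498 ± 95.3 CPM per kb in old samples and 390 ± 14.4 CPM per kb in young samples (SD, n = 3 each).

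**Figure D1:**
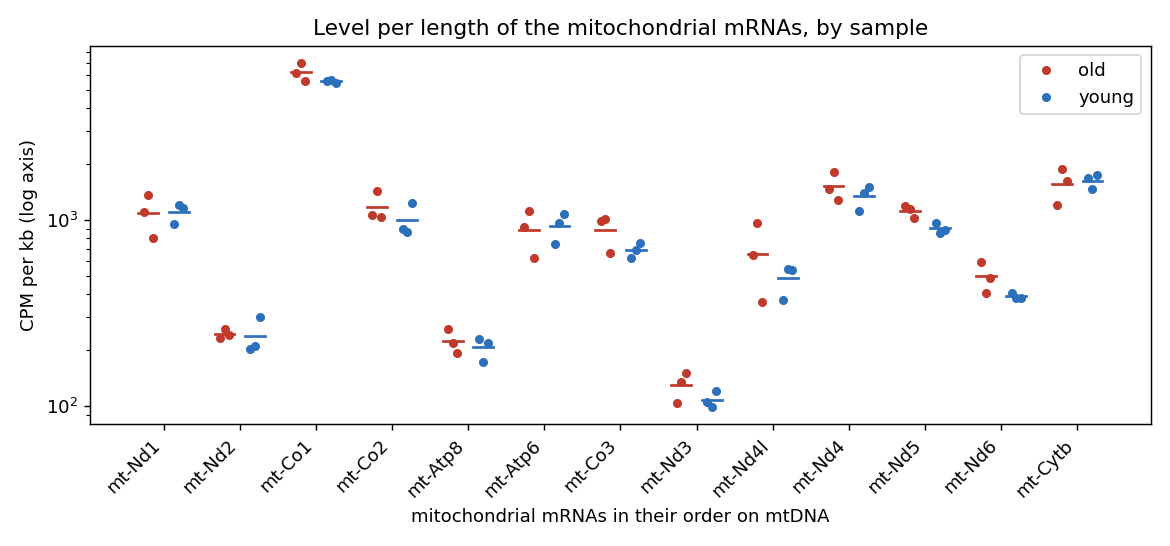
Level of each mitochondrial mRNA in CPM per kb of gene length (log axis), in the order of the genes on mitochondrial DNA. Each point is a sample, old in red at left and young in blue at right, and bars are group means. mt-Co1 stands above and mt-Nd3 below the other genes in all 6 samples.

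Per length, the nuclear members had the lower median, 13.1 CPM per kb over the 80 tested, against 909 CPM per kb over the 13 mitochondrial mRNAs. In this order lengths are the union of annotated exons. Cox6a1, a small subunit of complex IV, had 141 CPM per kb over the 6 samples, and Atp5b, the catalytic beta subunit of the ATP synthase, had 122 CPM per kb. Cox8a and Cox7c, other small subunits of complex IV, followed with 92.3 and 84.6 CPM per kb. In complex II the flavoprotein subunit Sdha was highest, with 43.6 CPM per kb, and its iron-sulfur partner Sdhb lowest with 6.33 CPM per kb. In complex I the accessory subunit Ndufc2 was highest with 56.8 CPM per kb and Ndufa4 lowest with 1.88 CPM per kb. In complex III the small subunit Uqcr10 was highest with 40.7 CPM per kb and the core protein Uqcrc1 lowest with 7.25 CPM per kb. The order depends on the length used. With the median transcript length instead, the nuclear median was 34.2 CPM per kb, and Atp5b (675 CPM per kb), Sdha (345), Atp5a1 (240) and Cox7c (197) stood above Cox6a1 (166). With that length Ndufs7 (75.1) and Ndufc2 (74.3) were side by side at the top of complex I and Ndufa4l2 (2.69) was its lowest. In complex III, Uqcrc2 (64.5) was then highest and Uqcrfs1 (11.2) lowest, with Uqcr10 at 54.8 and Uqcrc1 at 51.6 CPM per kb. Sdha and Sdhb kept the ends of complex II with both lengths.

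The age comparison asks whether these transcripts differ between lymphatic endothelial cells of old and young mice. No subunit passed the test: edgeR called 0 of the 93 tested members and 0 of all 15394 genes at an adjusted p under 0.05, and the smallest adjusted p of a member was 0.888. By edgeR at an unadjusted p under 0.05 there were 856 genes, of which 441 were higher in old samples (2.86%) and 415 lower (2.70%). Among the members 2 were higher and 1 was lower, together 3.23% of members against 5.56% of all genes. DESeq2 called 130 genes and limma-voom 3, and no member was among the calls of either. With old sample 1 left out, edgeR called 1 gene, which was not a member. The 3 members did not keep their unadjusted p without any 1 of the young samples. The count was then 0 of 93 members, against 904, 696 and 742 of all genes without young samples 1, 2 and 3.

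Those 3 members are accessory subunits of complex I. Ndufa9 (ENSMUSG00000000399; chromosome 6, 126821721 to 126849136, minus strand, GRCm38), a subunit near the ubiquinone site, had 81.4, 13.5 and 23.6 CPM in old samples 1, 2 and 3, against 8.09, 10.3 and 10.6 CPM in young samples 1, 2 and 3. Every old sample lay above every young one, but old sample 1 stood far above the other two old samples. The log2 fold change of Ndufa9 was 2.03 (SE 0.82; edgeR unadjusted p = 0.0352, adjusted p = 0.888), and without old sample 1 it was 0.94.

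Ndufa7 (ENSMUSG00000041881; chromosome 17, 33824572 to 33838317, plus strand), had 40.1, 10.3 and 32.1 CPM in the old samples, against 7.72, 2.73 and 9.32 CPM in the young samples. The lowest old sample stood just above the highest young one. The log2 fold change was 2.06 (SE 0.88; edgeR unadjusted p = 0.0449, adjusted p = 0.888). Ndufb3 (ENSMUSG00000026032; chromosome 1, 58586384 to 58595964, plus strand), a small subunit of the membrane arm, had 8.86, 4.19 and 5.44 CPM in the old samples, against 22.8, 19.0 and 27.9 CPM in the young samples. Here the 2 ages were well apart. The log2 fold change was −1.91 (SE 0.79; edgeR unadjusted p = 0.0383, adjusted p = 0.888).

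Apart from those 3, 9 members had groups that did not overlap, named here after their values were seen. Counting all 12, 8 members had every old sample above every young one, 8.60% of members against 5.56% of all genes, and 4 had every old sample below, 4.30% against 6.44%. These counts depend on the TMM scaling factors, which were 0.907 to 0.985 in old samples and 1.03 to 1.06 in young samples. With library size as the only scaling, 5 members lay wholly above (5.38%, against 4.12% of all genes) and the same 4 wholly below (4.30%, against 8.28%), since mt-Nd6, Sdha and Cox8a then overlapped. On the higher side with TMM were mt-Nd5, mt-Nd6, Ndufa7, Ndufa9, Ndufs4, Sdha, Uqcrq and Cox8a. On the lower side were Ndufb3, Ndufa5, Ndufb7 and Ndufv2, all of complex I. That complex has 7 mitochondrial and 38 nuclear genes among the 93 tested members. On the higher side mt-Nd5, mt-Nd6, Ndufa7, Ndufa9 and Ndufs4 also belong to it.

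Of these, mt-Nd5, a proton-pumping subunit of complex I, had 2186, 2090 and 1866 CPM in the old samples, against 1763, 1563 and 1615 CPM in the young samples. The log2 fold change was 0.31 (SE 0.15; edgeR unadjusted p = 0.0628, adjusted p = 0.888). mt-Nd6 had 310, 211 and 254 CPM in the old samples, against 211, 198 and 198 CPM in the young samples, so old sample 2 and young sample 1 stood side by side. Sdha, which oxidises succinate, had 221, 181 and 200 CPM in the old samples, against 135, 171 and 171 CPM in the young samples, a log2 fold change of 0.33 (SE 0.26). Every old sample of Sdha was higher, by a margin smaller than the spread among the young samples.

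Cox8a had 51.8, 82.3 and 73.1 CPM in the old samples, against 42.1, 44.4 and 49.1 CPM in the young samples, with a log2 fold change of 0.61 (SE 0.42). Ndufs4, an accessory subunit of complex I whose loss causes Leigh syndrome in humans, had 59.2, 32.6 and 29.5 CPM in the old samples, against 15.7, 22.1 and 12.3 CPM in the young samples, with a log2 fold change of 1.27 (SE 0.62). Uqcrq, a small subunit of complex III, had 49.1, 30.6 and 34.5 CPM in the old samples, against 11.3, 13.7 and 24.6 CPM in the young samples, with a log2 fold change of 1.20 (SE 0.63). In both Ndufs4 and Uqcrq old sample 1 was the highest of the 6 samples.

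On the lower side, Ndufv2, an iron-sulfur subunit of the NADH-oxidising module, had 4.25, 10.3 and 12.3 CPM in the old samples, against 19.5, 14.5 and 33.2 CPM in the young samples, with a log2 fold change of −1.32 (SE 0.81). Ndufb7 had 16.1, 1.81 and 7.39 CPM in the old samples, against 16.7, 21.5 and 25.1 CPM in the young samples. Ndufa5 had 4.47, 1.88 and 4.62 CPM in the old samples, against 7.04, 11.0 and 9.81 CPM in the young samples. Both Ndufb7 and Ndufa5 were lowest in old sample 2.

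**Figure D2:**
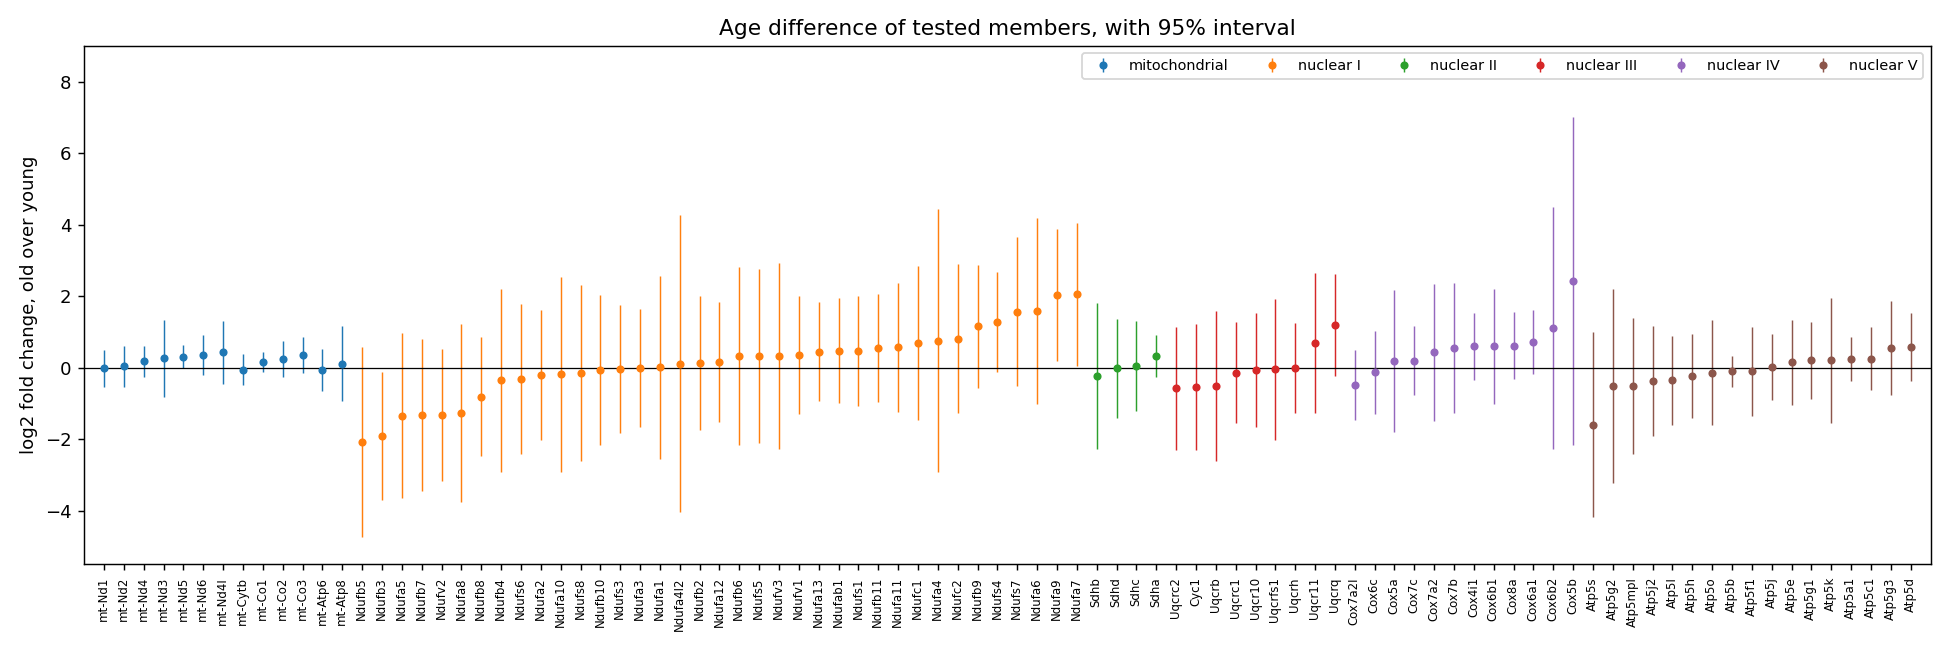
Log2 fold change, old over young, of 92 of the 93 tested members, as points with approximate 95% intervals worked out from the edgeR test, coloured by genome and complex. Of the mitochondrial intervals 10 of 13 lie within 2-fold in both directions and those of mt-Nd3, mt-Atp8 and mt-Nd4l do not, most nuclear intervals are longer, and 3 of the 92 exclude 0.

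Taking the members by complex, the median log2 fold change was 0.18 over the 13 mitochondrial mRNAs and 0.13 over the 80 nuclear members, against 0.02 over all tested genes. In all 54 of 93 members, 58.1%, had a positive value, against 51.0% of all genes. With library size as the only scaling, the median of all genes moved to −0.12, and those of the nuclear members and the mitochondrial mRNAs to −0.03 and 0.04. Without old sample 1 the nuclear median was −0.05 and that of all genes −0.08. Thus the sign of the nuclear median depends on both choices, and so does that of all genes.

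Nuclear members of complex IV had the highest median, 0.58, with 10 of 12 tested members positive. Their summed level was 708, 558 and 511 CPM in old samples 1, 2 and 3, against 456, 474 and 476 CPM in young samples 1, 2 and 3. All old sums lay above all young ones with TMM scaling. With library size as the only scaling they overlapped, with 642, 540 and 504 CPM of total counts in the old samples, against 469, 502 and 504 in the young samples, where old sample 3 was just below young sample 3, and the median was 0.43. Without old sample 1 the median was 0.21, with 7 of 12 positive, against a median of −0.08 over all genes. Cox6a1 had 169, 90.1 and 110 CPM in the old samples, against 50.2, 83.9 and 91.5 CPM in the young samples, a log2 fold change of 0.71 (SE 0.39), with old sample 2 inside the young range. Cox4i1, the common form of a regulatory subunit, had 94.6, 143 and 63.2 CPM in the old samples, against 53.6, 75.5 and 69.6 CPM in the young samples, a log2 fold change of 0.60 (SE 0.41). The mitochondrially encoded core of the same complex had smaller differences, with a log2 fold change of 0.16 (SE 0.12) for mt-Co1, 0.24 (SE 0.22) for mt-Co2 and 0.36 (SE 0.22) for mt-Co3. Whether the nuclear and mitochondrial subunits of complex IV differ was not tested.

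For complex I, the summed nuclear level was 1048, 613 and 907 CPM in the old samples, against 728, 637 and 703 CPM in the young samples. The old samples lay on both sides of the young ones, and the median log2 fold change over 38 members was 0.15. In the NADH-oxidising part of the catalytic core, Ndufs1 and Ndufv1 overlapped between the ages, with log2 fold changes of 0.48 (SE 0.68) and 0.36 (SE 0.72). In Ndufv2, of the same part, every old sample lay below every young one, with a log2 fold change of −1.32 (SE 0.81). Ndufs7, another core subunit, had 205, 21.8 and 23.0 CPM in the old samples, against 46.9, 18.2 and 18.7 CPM in the young samples. Its log2 fold change of 1.57 (SE 0.91) came to −0.32 without old sample 1, which alone held the high value. Ndufa6, an accessory subunit, had the same shape, with 90.3, 6.65 and 4.32 CPM in the old samples, against 14.9, 7.53 and 11.2 CPM in the young samples, and −1.03 without old sample 1. Old sample 1 also had the highest sums of pericyte and smooth muscle markers, 2017 CPM, and of lymphatic endothelial markers, 19169 CPM. It had the fewest genes with a count, 17074, and the lowest TMM factor, 0.907. What part any of these has in the values of Ndufs7 and Ndufa6 was not tested.

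In complexes II, III and V the sign of the median turned with 1 sample left out. The median over all genes turned as well, and ranged from −0.08 to 0.06. The summed level of complex II was 323, 272 and 310 CPM in the old samples, against 226, 305 and 253 CPM in the young samples, with a median log2 fold change of 0.02, which was 0.31 without young sample 2 and −0.08 without old sample 3. Of its other subunits, Sdhb had a log2 fold change of −0.23 (SE 0.90), Sdhc of 0.06 (SE 0.56) and Sdhd of −0.02 (SE 0.61). Complex III had a median of −0.05 over 9 members, with 237, 266 and 148 CPM summed in the old samples, against 219, 218 and 225 CPM in the young samples. Its Rieske iron-sulfur protein Uqcrfs1 had a log2 fold change of −0.05 (SE 0.87), the core proteins Uqcrc1 and Uqcrc2 had −0.13 (SE 0.62) and −0.58 (SE 0.76), and cytochrome c1, encoded by Cyc1, had −0.53 (SE 0.77). The complex III median was −0.25 without old sample 1 and 0.12 without old sample 3. Complex III was lowest in old sample 3, and so was Uqcrc2.

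The ATP synthase had the steadiest nuclear sum of the 5 complexes over the 6 samples, with 1290, 1197 and 1331 CPM summed in the old samples, against 1230, 1237 and 1251 CPM in the young samples, and a median log2 fold change of −0.10 over 17 members, which was 0.04 without young sample 3. Atp5b had 491, 466 and 545 CPM in the old samples, against 546, 586 and 477 CPM in the young samples, with a log2 fold change of −0.10 (SE 0.19) and a 95% interval of −0.54 to 0.34. It also had the lowest coefficient of variation of any tested nuclear member, 9.14% over the 6 samples. Atp5a1, the alpha subunit, had 200, 177 and 261 CPM in the old samples, against 209, 164 and 163 CPM in the young samples. Atp5c1, the gamma subunit that turns in the catalytic head, had a log2 fold change of 0.26 (SE 0.39).

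**Figure D3:**
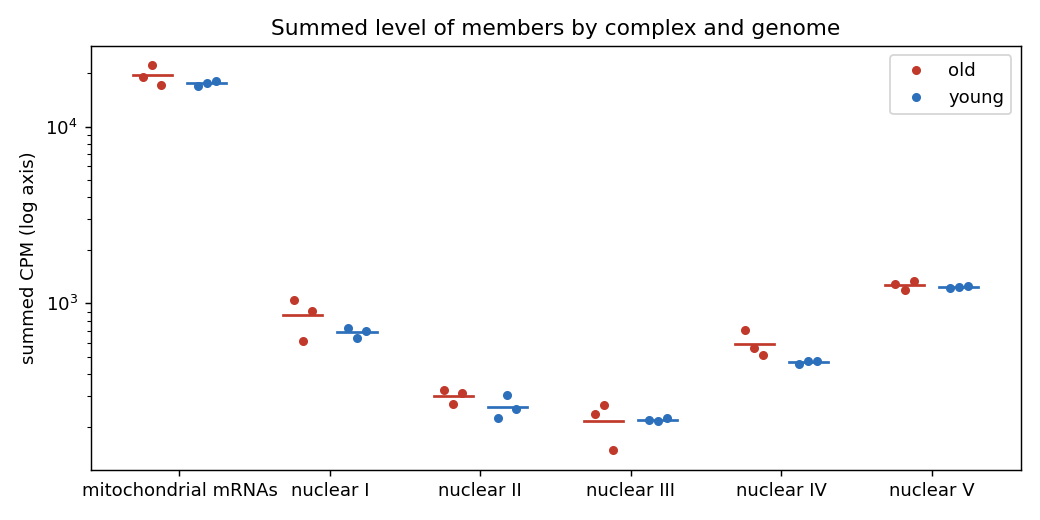
Summed CPM (log axis) of the members of each group, with mitochondrial mRNAs at left and the nuclear members of complexes I to V to the right. Each point is a sample, old in red at left and young in blue at right, and bars are group means. With this TMM scaling the old and young sums do not overlap in nuclear complex IV and overlap in the other groups; with library size only they overlap in complex IV too.

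The other mitochondrial mRNAs overlapped between the ages. mt-Co1 had 9524, 10800 and 8645 CPM in the old samples, against 8635, 8807 and 8399 CPM in the young samples, with a 95% interval of −0.11 to 0.44 on its log2 fold change. mt-Cytb had 1385, 2148 and 1855 CPM in the old samples, against 1928, 1685 and 1990 CPM in the young samples, and mt-Nd4 had 2021, 2499 and 1768 CPM in the old samples, against 1552, 1934 and 2079 CPM in the young samples. Old sample 2 was the highest of the 6 samples for 8 of the 13 mitochondrial mRNAs, 61.5%, against 14.3% of all tested genes. mt-Nd1 and mt-Atp6 had log2 fold changes of −0.02 (SE 0.22) and −0.07 (SE 0.26), mt-Nd2 and mt-Atp8 of 0.04 (SE 0.25) and 0.12 (SE 0.46), and mt-Nd3 and mt-Nd4l of 0.26 (SE 0.47) and 0.43 (SE 0.39).

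The mitochondrial ribosomal RNAs, which come from the same genome and serve the ribosomes that translate these mRNAs, took 20.2%, 21.9% and 16.0% of all counts in old samples 1, 2 and 3, against 16.5%, 15.7% and 16.0% in young samples 1, 2 and 3. Old samples 1 and 2 were high, and old sample 3 lay among the young ones. mt-Rnr2, the large subunit RNA, had a log2 fold change of 0.40 (SE 0.12; edgeR unadjusted p = 0.00857, adjusted p = 0.761), and mt-Rnr1, the small subunit RNA, of 0.44 (SE 0.16; edgeR unadjusted p = 0.0246, adjusted p = 0.888). Counts of ribosomal RNA were 11.6, 10.2 and 9.43 times those of the mRNAs in the old samples, and 9.43, 8.41 and 8.31 times in the young samples. Old sample 3 and young sample 1 were level, and whether the ribosomal RNAs differ from the mRNAs in their age difference was not tested.

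Nuclear members scattered far more between samples than mitochondrial ones. The median coefficient of variation over the 6 samples was 49.4% for nuclear members, with a range of 9.14% to 171%, against 17.2% for mitochondrial mRNAs, with a range of 9.87% to 38.6%, and 64.8% for all tested genes. Most nuclear members were also lower in level, with a median of 23.5 CPM against 620 CPM. Within 1 band of level, 40 to 80 CPM, the median coefficient was 33.0% for 16 nuclear members, 15.6% for 2 mitochondrial mRNAs and 45.4% for all 2154 genes. In the band of 160 to 640 CPM it was 16.2% for 3 nuclear members, 21.1% for 5 mitochondrial mRNAs and 27.0% for all 888 genes. Thus the nuclear and mitochondrial members did not keep one order at matched level.

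Of the 80 tested nuclear members, 17 had a highest sample over 10 times their lowest, 3 had a count of 0 in at least 1 sample, and 12 stayed within 2-fold. Among the 12 was Ndufa12, an accessory subunit of complex I, with 15.4, 16.5 and 12.4 CPM in the old samples, against 15.4, 12.6 and 11.7 CPM in the young samples. Cox5b, a zinc-binding subunit of complex IV, had the largest coefficient, 171%, with 3.05, 0 and 22.2 CPM in the old samples, against 0.0618, 2.53 and 2.06 CPM in the young samples. The 95% interval of the fold change lay within 2-fold in both directions for 10 of 13 mitochondrial mRNAs and 4 of 80 nuclear members, so for most nuclear members these data could not exclude a 2-fold difference. Old sample 1 was the highest of the 6 for 28 of the 80 nuclear members, 35.0%, against 22.5% of all tested genes, and the lowest for 22, 27.5%, against 27.1%.

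**Figure D4:**
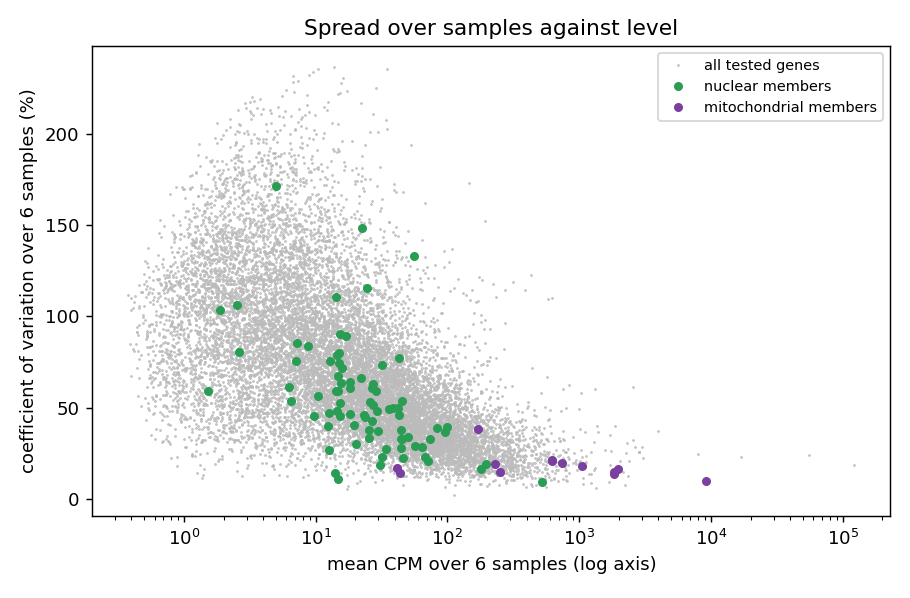
Coefficient of variation over the 6 samples (%) against mean CPM (log axis), with all 15394 tested genes in grey, nuclear members in green and mitochondrial members in purple. Over all genes the median spread falls with level, and most mitochondrial members lie at the right, at low spread.

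Several subunits have tissue forms, and the muscle and testis forms had low counts, uneven between samples. Cox7a1, the heart and muscle form, had 0, 0 and 0 counts in the old samples, against 0, 6 and 15 counts in the young samples, while its partner Cox7a2 had 37.5, 7.67 and 17.9 CPM in the old samples, against 22.9, 16.0 and 7.93 CPM in the young samples. In young sample 3 Cox7a1 made 13.01% of that pair per length. Cox8b, another muscle form, had 45, 0 and 0 counts in the old samples, against 5, 4 and 1 in the young samples, and made 10.02% of its pair with Cox8a in old sample 1. Cox7b2, a testis form, had 3, 0 and 0 counts in the old samples, against 2, 1 and 1 in the young samples. The 6 striated muscle markers with a row summed to 0.217 to 5.59 CPM in the old samples and 0 to 14.9 CPM in the young samples, and none passed the filter on low counts.

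Cox4i2, a form of Cox4 known from lung and from pericytes, had 0, 2 and 0 counts in the old samples, against 3, 0 and 54 counts in the young samples. Nearly all its counts came from young sample 3, where it made 6.40% of the Cox4 pair per length. Cox6b2, a testis form that passed the filter, had 74, 1 and 44 counts in the old samples, against 24, 33 and 9 counts in the young samples. It made 6.84%, 0.356% and 4.07% of the Cox6b pair in the old samples and 5.16%, 3.40% and 1.84% in the young samples. Cox4i2, Cox7a1, Cox7b2 and Cox8b did not pass the filter and were not tested. Ndufa4l2, known as a target of hypoxia-inducible factor, made 100%, 6.66% and 23.5% of its pair with Ndufa4 in the old samples, against 84.9%, 0% and 48.1% in the young samples. Both members of that pair were low, with Ndufa4 at 0, 3.83 and 5.98 CPM in the old samples and 1.24, 2.17 and 2.37 CPM in the young samples.

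Some subunits have near-identical copies elsewhere, and reads that fit both have to be divided, so their values are uncertain. Salmon, which the submitters' processing notes name without a role, splits such reads by likelihood. Annotated copies of at least 95% identity over at least 150 bases were found for 23 of 84 nuclear members, and copies with a row in the table for 14. For 6 of them the copies held over 10% of the summed counts of gene and copies. Atp5g2, 1 of 3 genes for the c subunit of the ATP synthase ring, had 94.2% of these counts on its copies Gm10175 and Gm10231, and Ndufb4 had 64.2% on its copy Ndufb4c. The share was 30.1% for Atp5l, 18.2% for Cox7c, 16.4% for Atp5g1 and 10.3% for Uqcrb. In Uqcrb it was 55.9%, 0% and 0% in old samples 1, 2 and 3, against 9.55%, 0% and 0% in young samples 1, 2 and 3. With the copies added, the log2 fold change of Atp5g2 was −0.06 (SE 0.74) in place of −0.51 (SE 1.20), and that of Ndufb4 was −0.28 (SE 0.83) in place of −0.35 (SE 1.13). None of the 6 was called with copies added, with edgeR adjusted p from 0.966 to 1.00. Of the mitochondrial mRNAs 9 have annotated copies, and 4 have copies with a row in the table, which held at most 0.0459% of the summed counts. For copies without a row no share can be given. Atp5g3, the third c subunit gene, had 81.9, 42.9 and 24.8 CPM in the old samples, against 37.3, 26.3 and 38.1 CPM in the young samples.

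**Figure D5:**
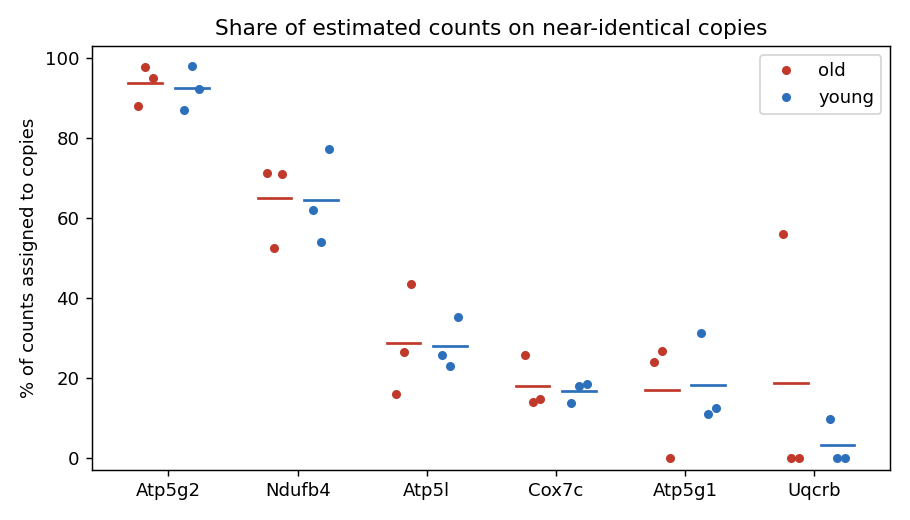
Share of the summed counts of gene and copies that was assigned to the copies (%), for the 6 members with over 10%. Each point is a sample, old in red at left and young in blue at right, and bars are group means. The shares of Atp5g2 and Ndufb4 are above 50% in all 6 samples.

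Other genes of the pathway, from lists chosen by their known roles, likewise gave no call after adjustment by edgeR. Of 49 tested assembly factors 1 was higher and 3 were lower at an unadjusted p under 0.05, which is 2.04% and 6.12%, against 2.86% and 2.70% of all genes, with a median log2 fold change of 0.00. Coa7 and Cox18, which help build complex IV, had log2 fold changes of −3.02 (SE 1.25) and −2.44 (SE 1.04), Higd2a, which helps assemble respiratory supercomplexes, had −1.73 (SE 0.73), and Cox20, a chaperone of mt-Co2 protein, had 3.24 (SE 1.39), which was 2.03 without old sample 1. Of 22 electron carriers and exchangers 2 were higher (9.09%) and 0 lower, with a median of 0.25. Pdss2, an enzyme of ubiquinone synthesis, had 146, 26.8 and 11.9 CPM in the old samples, against 5.004, 7.03 and 18.5 CPM in the young samples. The ages overlapped and old sample 1 stood far above the rest, and the log2 fold change of Pdss2 was 2.59 (SE 1.01), or 0.92 without old sample 1. Vdac1, the outer membrane channel, had 150, 42.4 and 65.9 CPM in the old samples, against 33.9, 34.6 and 38.2 CPM in the young samples, with a log2 fold change of 1.27 (SE 0.53), or 0.61 without old sample 1.

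Of 26 genes of mitochondrial DNA expression and biogenesis, 0 had an unadjusted p under 0.05 by edgeR, and the median log2 fold change was −0.24. The smallest p was that of Supv3l1, a helicase that takes part in mitochondrial RNA decay, with a log2 fold change of 1.55 (SE 0.92). Of 76 mitochondrial ribosomal proteins 2 were higher (2.63%) and 1 was lower (1.32%) at an unadjusted p under 0.05, neither share above the 2.86% and 2.70% of all genes, with a median of −0.06. Mrps2 had 95.4, 19.9 and 35.6 CPM in the old samples, against 6.12, 9.86 and 3.45 CPM in the young samples, with a log2 fold change of 2.96 (SE 0.82), which was 2.10 without old sample 1. Mrpl28 had 2.22 (SE 0.95) and Mrpl37 −1.41 (SE 0.60).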

How the data were processed

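Total RNA of 6 samples, 3 old and 3 young, was amplified linearly before sequencing, per the labels' protocols. The authors deposited estimated counts for each gene, as whole numbers. FastQC, Salmon and mm10 appear in the submitters' processing notes, without versions or roles. Not given in the sources used here are the annotation, the step to gene level and strandedness. Groups came from the labels. Symbols, positions and exon lengths came from GENCODE M21 on GRCm38, in which 22738 of 22964 gene identifiers had a symbol.

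The test was edgeR's quasi-likelihood test (version 4.0.16, R 4.3.3; robust, two-sided), with age as the only term and TMM scaling. Low genes were removed by filterByExpr (10 counts, total 15). Benjamini-Hochberg adjustment ran over 15394 genes, with a threshold of 0.05. Log2 fold changes are old over young. Each SE was worked out as the absolute log2 fold change over the square root of the test's F statistic. The 95% intervals used that SE and a t quantile, so both are approximate. CPM is the count over the effective library size (total times TMM factor), and CPM per kb divides it by the union of exons. Principal components used log2 CPM with a prior count of 2. Alternatives used DESeq2 1.42.0, limma 3.58.1, other scalings and filters, a replicate block and each sample left out. The fit was tested on simulated counts. Shares and fold changes rest on counts whose total depth was 14285794 to 21043945 per sample.

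The members and lists were chosen with earlier results of these data known. Named were all mitochondrial mRNAs, the core nuclear subunits, isoform pairs, members at an unadjusted p under 0.05, the highest and lowest of each complex by level per length, and up to 4 genes per list by smallest p. Results for 1 core subunit are not reported here. Others were named after their values were seen: the members whose groups did not overlap, the highest nuclear member of a complex, those with copies, and Ndufs7, Ndufa6, Ndufa12 and Cox7c.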

Additional observations from a re-analysis of the deposited data

How the results depend on the processing

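The count of members called was 0 under every alternative run. The count at an unadjusted p under 0.05 was 3 of 93 members, and it was 5 by DESeq2, 1 with the replicate block and 0 to 3 with 1 sample left out. The matching counts over all 15394 genes were 856 by edgeR, 1374 by DESeq2 and 712 with the block. With 1 sample left out they were 696 to 1396 of 16430 to 16859 genes. Over all genes, 0 were called by edgeR, 130 by DESeq2, 3 by limma-voom and 0 to 1 with 1 sample left out. The median log2 fold change ranged from −0.055 to 0.18 over nuclear members and from 0.076 to 0.25 over mitochondrial mRNAs with 1 sample left out. Over all genes it then ranged from −0.078 to 0.056. The nuclear median of 13.1 CPM per kb was 34.2 with median transcript lengths. Deviations of same-numbered samples of the 2 ages had correlations of 0.078, 0.051 and −0.014, against −0.094 to 0.059 for samples of other numbers. These ranges overlap and the labels state no pairing, so whether the numbers pair samples is not settled. The block result is given only here.

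Some log2 fold changes of named members, none of them called, changed sign, and the cause was not tested. With DESeq2's size factors the log2 fold change was 0.011 for mt-Nd1 and 0.0075 for Sdhd. With the DESeq2 test the log2 fold change was 0.011 for mt-Nd1 and 0.0077 for Sdhd. With library size only the log2 fold change was −0.10 for mt-Nd2, −0.026 for mt-Atp8, −0.099 for Sdhc and −0.049 for Ndufa4l2. With limma-voom the log2 fold change was 0.053 for Sdhb, −0.075 for Sdhc, 0.083 for Sdhd, 0.033 for Uqcrc1, −0.80 for Ndufa4 and 0.15 for Uqcr10. With the replicate block the log2 fold change was 0.088 for Sdhb, −0.019 for Sdhc, 0.049 for Uqcrfs1, −0.34 for Ndufa4 and 0.12 for Uqcr10. With 1 sample left out, log2 fold changes that crossed 0 ranged as follows: mt-Atp8 −0.0057 to 0.21, mt-Cytb −0.21 to 0.099, Sdhc −0.41 to 0.35, Sdhd −0.50 to 0.44, Uqcrfs1 −0.64 to 0.34 and Cox6b2 −0.091 to 1.68. Further ranges were Cox7a2 −0.29 to 0.83, Ndufa4l2 −1.51 to 1.57, Atp5g3 −0.0037 to 0.88, Cox7c −0.26 to 0.42, Ndufb4 −0.79 to 0.33 and Ndufs7 −0.32 to 2.16. Others were Ndufa6 −1.03 to 2.11, mt-Nd2 −0.066 to 0.23, Ndufv1 −0.099 to 0.73, Cox5a −0.20 to 0.56, mt-Nd1 −0.21 to 0.16 and mt-Atp6 −0.28 to 0.13. The last were Cox5b −0.030 to 3.02, Ndufa4 −0.0096 to 1.34, Uqcr10 −0.36 to 0.63, Uqcrc1 −0.44 to 0.31 and Sdhb −0.66 to 0.60. The median coefficient of variation was 59.1% for the 25 nuclear members of 10 to 20 CPM. It was 33.0% for the 16 of 40 to 80 CPM and 38.7% for the 3 of 80 to 160 CPM. Over all genes of these bands it was 73.0%, 45.4% and 34.6%, so in the last band the members were higher. What part depth has in this was not tested.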
